A study of Mus musculus with 29 samples.

Results

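The formyl peptide receptors Fpr1 and Fpr2 and 6 genes of the Cd300 family, Cd300a, Cd300e, Cd300lb, Cd300ld, Cd300lf and Cd300lg, were examined in macrophages lacking RNase T2. These 8 of the 23930 genes in the deposited table were chosen on their measured values, since Fpr1 and Cd300e stood out among genes that were higher in splenic Ly6Chi macrophages without RNase T2. All 8 were present in the table, and all 8 passed the filter on low values in every comparison. RNA was profiled in 29 libraries of 9 groups, sorted from untreated WT C57BL/6 mice and from Rnaset2-/- (KO) mice, which lack both copies of the gene (Rnaset2a and Rnaset2b) in all cells. RNase T2 is a lysosomal ribonuclease, and the study asked what characterises the macrophages that accumulate without it. The splenic groups were Ly6Chi WT (n = 3), Ly6Chi KO (n = 3), Ly6Clow WT (n = 3) and Ly6Clow KO (n = 4). The hepatic groups were Ly6Chi WT, Ly6Chi KO, Ly6Clow WT and Ly6Clow KO (n = 3 each), together with WT Kupffer cells (KCs, the resident macrophages of the liver, n = 4). Ly6C separates classical monocyte-like cells (Ly6Chi) from patrolling, resident-like cells (Ly6Clow). Both subsets were CD11b-positive and negative for Ly6G, SiglecF and NK1.1, the Ly6Clow gate also required Fcgr4 (CD16.2) by the labels, and KCs were sorted by F4/80, intermediate CD11b, Tim4 and low PDCA-1. The study's methods, unlike the labels, write 1 and the same gate, Ly6C-low with high CD16.2, for both hepatic KO subsets, so that how hepatic Ly6Chi KO cells were gated is uncertain. Mouse ages and the number of animals per library are not given in the sources used here, so p-values measure the spread between these libraries.

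Formyl peptide receptors are Gi-coupled receptors of phagocytes. They sense N-formylated peptides, which come from bacteria and from damaged mitochondria, and they start chemotaxis and the oxidative burst. FPR2 also binds endogenous ligands such as annexin A1, serum amyloid A and cathelicidin. The CD300 molecules are single immunoglobulin-domain receptors of myeloid cells that recognise membrane lipids, including those exposed on dying cells. CD300a and CD300lf carry inhibitory tyrosine motifs in the cytoplasmic tail, whereas CD300lb, CD300ld and CD300e have short tails and are activating types that pair with adaptors such as DAP12 (Tyrobp) or the Fc receptor gamma chain (Fcer1g). CD300lg is the member known from endothelium.

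The libraries held 11175843 to 21167602 reads, so a count of 3 reads corresponded to 0.142 to 0.268 RPM, the number of reads scaled to an equal total, and the lowest value of any member, 1.47 RPM for Fpr2, rested on 21 reads. Each gene was read through its own amplicon, so levels were compared between groups and not between genes. Macrophage markers (7 genes) summed to 2061 to 10253 RPM over all libraries. Neutrophil markers (11 genes) reached 31898 to 34199 RPM in splenic Ly6Chi WT and 34235 to 60154 RPM in splenic Ly6Chi KO libraries, despite the Ly6G-negative gate. Of the hepatic libraries, the 3 KO libraries of each Ly6C subset had Xist at no more than 0.154 RPM against at least 321 RPM in each WT library, so the sex of the mice and their genotype cannot be told apart there. Among splenic libraries, only replicate 2 of Ly6Clow KO had Xist under 1 RPM. Dissociation stress genes (10 genes, such as Fos and Hspa1a) summed to 23780.2 to 24652 RPM in hepatic Ly6Chi WT and 18580.4 to 26733 RPM in Ly6Clow WT, against 2976 to 4846 and 859.7 to 999.6 RPM in the corresponding KO libraries, and their part in the results was not tested. In bulk RNA from sorted cells, a larger share of cells expressing a gene cannot be told apart from more RNA per cell.

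Of the 8 members, 7 lie in 2 gene clusters of the GRCm38 (mm10) assembly. Fpr1 (chr17:17876471-17883940, minus strand) and Fpr2 (chr17:17887824-17893952, plus strand) stand head to head on chromosome 17, 3883 bp apart, and the annotated gene Fpr3 overlaps Fpr2. Cd300a (chr11:114890041-114904654), Cd300lb (chr11:114922781-114934386), Cd300ld (chr11:114982274-114989922), Cd300e (chr11:115051917-115062177) and Cd300lf (chr11:115116214-115133992) span 244 kb of chromosome 11, and Cd300a is the only one of these 5 on the plus strand. Cd300lg (chr11:102041509-102055620, plus strand) lies 12.8 Mb away on the same chromosome. Between Cd300ld and Cd300e the annotation places further genes named as Cd300ld copies, so reads given to Cd300ld may include some of theirs.

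The 250 bases before the RefSeq start sites (GRCm38.p6) are shown for Fpr1 and Cd300e, by which the set was chosen, for Cd300ld, whose levels followed Cd300e, and for Cd300a, which went the other way. RefSeq windows were matched for 7 of the 8 members (Cd300lg was not matched). The gene positions given above come from another annotation (GENCODE). The windows of Cd300e, Cd300ld and Cd300lb overlap those gene spans in part, and that of Fpr1 at its edge. Capitals mark GAGGAA, the core of PU.1-type sites, and TTGCNNAA, a C/EBP-type site, on either strand.
Fpr1, chr17:17883940-17884189, strand -: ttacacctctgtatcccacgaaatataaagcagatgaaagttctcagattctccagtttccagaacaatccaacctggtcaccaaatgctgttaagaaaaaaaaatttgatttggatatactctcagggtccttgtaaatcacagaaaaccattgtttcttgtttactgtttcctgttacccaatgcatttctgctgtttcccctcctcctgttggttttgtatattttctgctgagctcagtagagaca
Cd300e, chr11:115062040-115062289, strand -: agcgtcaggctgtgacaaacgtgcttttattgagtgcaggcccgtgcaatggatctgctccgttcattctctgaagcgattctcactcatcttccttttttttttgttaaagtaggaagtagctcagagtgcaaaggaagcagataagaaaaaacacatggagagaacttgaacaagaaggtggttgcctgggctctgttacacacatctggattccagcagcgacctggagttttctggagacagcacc
Cd300ld, chr11:114989887-114990136, strand -: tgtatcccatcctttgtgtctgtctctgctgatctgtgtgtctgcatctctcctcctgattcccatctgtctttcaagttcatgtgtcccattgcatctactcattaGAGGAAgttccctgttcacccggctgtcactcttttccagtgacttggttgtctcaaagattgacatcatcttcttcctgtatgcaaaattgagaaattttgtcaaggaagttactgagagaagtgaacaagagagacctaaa
Cd300a, chr11:114889791-114890040, strand +: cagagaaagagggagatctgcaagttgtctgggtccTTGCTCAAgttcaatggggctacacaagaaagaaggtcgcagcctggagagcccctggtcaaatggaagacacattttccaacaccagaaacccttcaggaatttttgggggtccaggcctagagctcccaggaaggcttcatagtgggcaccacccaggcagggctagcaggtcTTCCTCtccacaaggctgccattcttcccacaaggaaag
GAGGAA was found in 4 of the 7 windows (Fpr2, Cd300a, Cd300ld and Cd300lf) and in 23.3% of all 32851 windows of that length. TTGCNNAA was found in 1 of the 7, that of Cd300a, and in 9.56% of all windows. In Cd300a the matches started 39 and 214 bases before the start site and did not overlap. Neither set of letters occurred in the windows of Fpr1, Cd300e and Cd300lb, which says nothing of the factors themselves.

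Across the 9 groups, the members differed in how far their levels ranged. Cd300e spanned the widest range, with group means from 5.802 RPM in splenic Ly6Chi WT to 1053 RPM in hepatic Ly6Clow KO, a 182-fold range. Fpr1 spanned 57.8-fold between the same 2 groups. Cd300a was the steadiest member, with a 3.40-fold range between KCs and splenic Ly6Clow WT. The other members spanned 4.39-fold (Cd300lb) to 18.8-fold (Cd300lg). When the groups were ordered by mean, the libraries of neighbouring groups overlapped in 4 of 8 steps for Fpr1, 5 of 8 for Cd300e, 6 of 8 for Fpr2, Cd300lb and Cd300ld, and 7 of 8 for Cd300a, Cd300lf and Cd300lg. The order within these steps is therefore not resolved by the libraries.

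**Figure D1:**
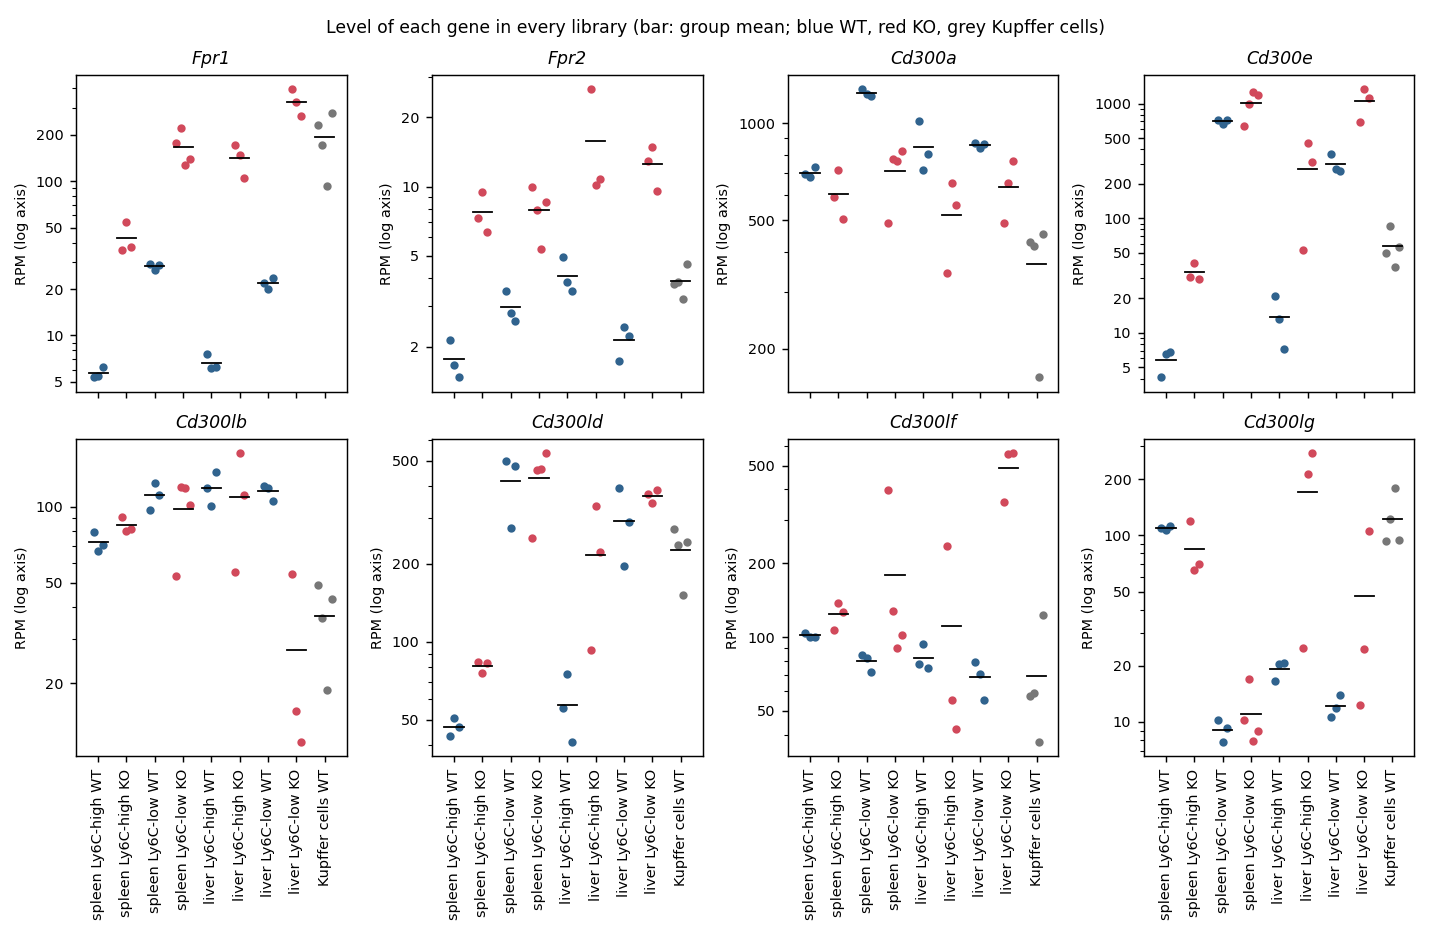
RPM of each gene in every library on a log axis, by group; points are libraries and bars are group means, blue for WT, red for KO and grey for KCs. All KO points of Fpr1 and Fpr2 lie above the WT points of the same organ and subset, whereas Cd300a lies lower in KO in splenic Ly6Clow and in both hepatic subsets.

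In splenic Ly6Chi macrophages, the comparison by which the genes were chosen, the values are given as a description without a test. Fpr1 was 5.34, 5.48 and 6.23 RPM in WT and 35.8, 54.7 and 37.2 RPM in KO, and Cd300e was 4.09, 6.52 and 6.79 RPM in WT and 30.7, 40.9 and 29.7 RPM in KO. Fpr2 was 2.15, 1.67 and 1.47 RPM in WT and 7.32, 9.51 and 6.32 RPM in KO. Every KO library was above every WT library for these 3 genes and also for Cd300lb, Cd300ld and Cd300lf, while the genotypes overlapped for Cd300a and Cd300lg. How many of all genes separate in this way was not counted. The log2 fold changes were 2.79 for Fpr1, 2.47 for Cd300e, 1.74 for Fpr2 and 0.89 for Cd300ld. They were smaller for Cd300lf (0.39), Cd300lb (0.34), Cd300a (-0.12) and Cd300lg (-0.30). Over all 10398 genes tested in this comparison, 9.77% were higher and 12.5% lower in KO, and 31.2% instead of 44% of these calls were higher when RPM were used as deposited. Cd300e remained far below its level in splenic Ly6Clow cells of either genotype, where the lowest library had 638 RPM.

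The question then was whether the same genes differed between genotypes in the other 3 subsets. A gene was called at an adjusted p below 0.05 and a fold change above 1.5 by limma, with Benjamini-Hochberg adjustment over all genes tested. In splenic Ly6Clow macrophages, 2 of the 8 members were higher in KO (background 4.05% of all genes tested) and 1 was lower (4.3%). In hepatic Ly6Chi macrophages, 4 were higher (15.7%) and 1 was lower (14.9%), and 74.6% instead of 51.2% of all calls were higher when RPM were used as deposited. In hepatic Ly6Clow macrophages, 4 were higher (20.2%) and 1 was lower (22.5%). Fpr1 and Fpr2 were higher in all 3 comparisons, Cd300e in both hepatic subsets, Cd300ld in hepatic Ly6Chi and Cd300lf in hepatic Ly6Clow cells. Cd300a was lower in 2 comparisons and Cd300lb in 1. The median log2 fold change of the 8 members was 0.36, 1.39 and 1.52 in the 3 comparisons, beside 0.01 in each for all genes tested. Since the members were chosen with these results known, the counts describe them and are not evidence about the families as such.

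**Figure D2:**
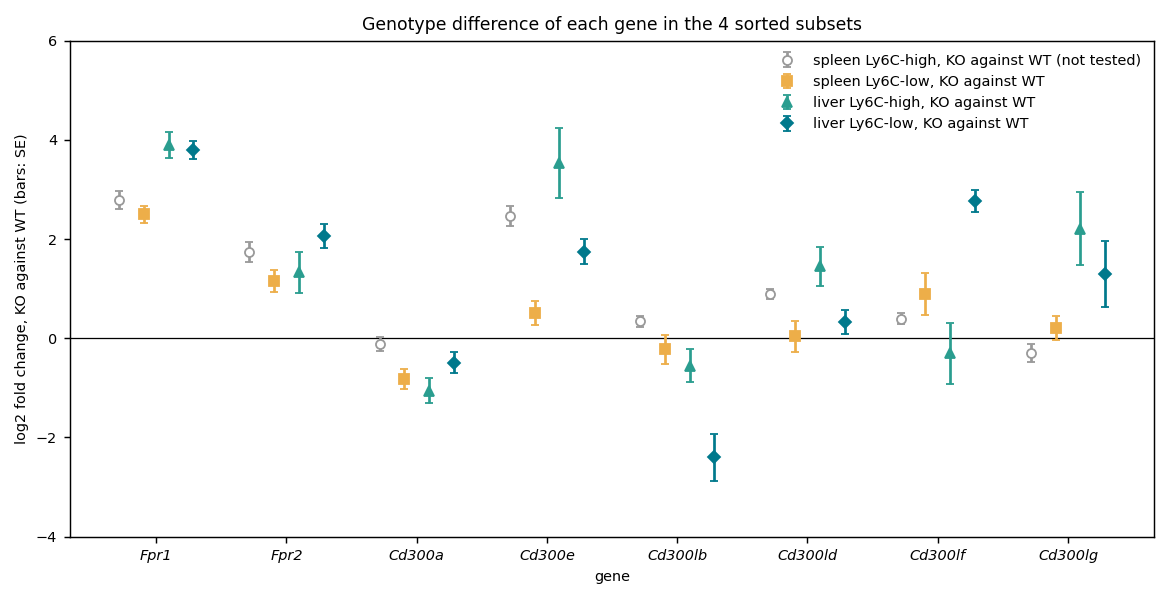
Log2 fold change of KO against WT for each gene in the 4 sorted subsets; symbols are estimates, bars are SE, and the open circles mark the splenic Ly6Chi comparison by which the genes were chosen and which was not tested. Fpr1 lies at 3.89 and 3.80 in the hepatic Ly6Chi and Ly6Clow cells, and in the latter Cd300lf is at 2.77 and Cd300lb at -2.40.

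Fpr1, the high-affinity receptor for formylated peptides, was higher in KO in all 3 genotype comparisons tested. In splenic Ly6Clow macrophages, it was 29.2, 26.6 and 28.7 RPM in WT and 176, 221, 128 and 140.2 RPM in KO. Every KO library was above every WT library, with a log2 fold change of 2.50 ± 0.17 (SE, adjusted p = 0.000151) in limma. In hepatic Ly6Chi macrophages, it was 7.56, 6.17 and 6.26 RPM in WT and 171, 149 and 104 RPM in KO, a ratio of means of 21.2. The groups were far apart, with a log2 fold change of 3.89 ± 0.27 (SE, adjusted p = 0.000160). In hepatic Ly6Clow macrophages, it was 21.8, 19.96 and 23.4 RPM in WT and 396, 325 and 264 RPM in KO, with a log2 fold change of 3.80 ± 0.18 (SE, adjusted p = 9.58e-06). The rise was larger in hepatic than in splenic Ly6Clow cells, by 1.31 ± 0.25 (SE, adjusted p = 0.00211) on the log2 scale in limma's interaction of genotype and organ. Between the hepatic subsets, the genotype effects differed by -0.07 ± 0.32 (SE, adjusted p = 0.941), which did not pass the threshold.

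Since Fpr1 is abundant in neutrophils, its level was set beside the neutrophil markers. In splenic Ly6Clow macrophages, these summed to 1407, 2598 and 1219.6 RPM in WT and 42941, 24260.0, 4731 and 3744 RPM in KO, with 4 of 11 called higher in KO, and were highest in KO replicates 1 and 2. Without these 2 libraries, the log2 fold change of Fpr1 was 2.27 (adjusted p = 1.11e-05, limma). In hepatic Ly6Clow macrophages, the neutrophil markers summed to 81.1 to 96.2 RPM in WT and 57.6 to 107 RPM in KO, mostly from Csf3r, which is not specific to neutrophils. The neutrophil alarmin S100a8 was 0.0830 to 1.57 RPM there in WT and 0.306 to 3.23 RPM in KO, in the group with the highest mean of Fpr1. Splenic Ly6Chi WT libraries had neutrophil markers at 31898 to 34199 RPM in sum and Fpr1 at no more than 6.23 RPM. Other markers differed in splenic Ly6Clow cells too. Erythroid markers were called higher in KO (3 of 3 tested), and 2 of 4 tested T and NK cell markers lower. Endothelial markers summed to 269 to 326 RPM in WT and 1499 to 2209 RPM in KO, with 1 of 3 tested called higher. The part of the neutrophil and these other markers in the Fpr1 results was not tested. Kupffer cell markers (8 genes) rose in hepatic Ly6Clow KO, with 5 of 8 called and sums of 460.0 to 782 RPM in WT and 6892 to 11327 RPM in KO, and WT KCs had Fpr1 at 229.9, 172, 93.6 and 279 RPM. Their part in the hepatic Ly6Clow results was not tested. In hepatic Ly6Chi cells the sum was not higher in KO (547 to 785 RPM in WT, 395 to 509 RPM in KO), with 4 of the 7 tested markers called higher and 1 lower.

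**Figure D3:**
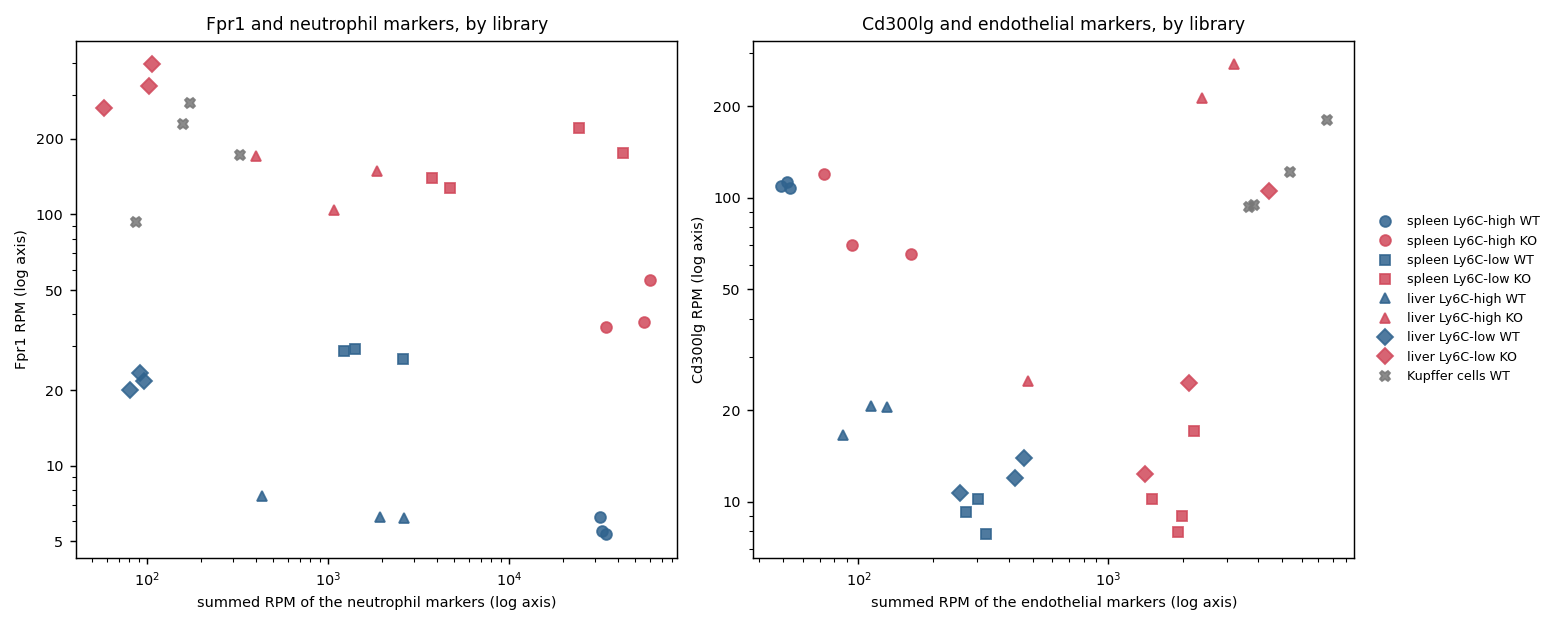
Left, Fpr1 RPM against the summed RPM of 11 neutrophil markers; right, Cd300lg RPM against the summed RPM of 10 endothelial markers; each point is a library, with shape for organ and subset and colour for genotype, all axes log. Hepatic Ly6Clow KO libraries combine high Fpr1 (264 to 396 RPM) with low neutrophil marker sums, and Cd300lg rises with the endothelial sum among hepatic libraries but is high in splenic Ly6Chi libraries where that sum is low.

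Fpr2, the receptor shared by formyl peptides and annexin A1, ranged from 1.47 to 26.6 RPM over all libraries and was higher in KO in the 3 genotype comparisons tested. In splenic Ly6Clow macrophages, it was 3.495, 2.81 and 2.60 RPM in WT and 9.96, 7.88, 5.32 and 8.60 RPM in KO, without overlap, with a log2 fold change of 1.16 ± 0.22 (SE, adjusted p = 0.0183) in limma. Leaving out WT replicate 2 (adjusted p = 0.0778) or WT replicate 3 (adjusted p = 0.0913) ended that call. In hepatic Ly6Chi macrophages, it was 4.94, 3.84 and 3.49 RPM in WT and 26.6, 10.1 and 10.8 RPM in KO. All 3 KO libraries were higher, replicate 1 most, and the log2 fold change was 1.33 ± 0.41 (SE, adjusted p = 0.0426). This call was lost when any 1 of 5 of the 6 libraries was left out, with adjusted p of 0.0506 to 0.131 and KO replicate 1 as the only library whose removal kept it. In hepatic Ly6Clow macrophages, it was 1.74, 2.44 and 2.24 RPM in WT and 12.9, 14.9 and 9.57 RPM in KO, well separated, with a log2 fold change of 2.05 ± 0.24 (SE, adjusted p = 0.000376) that held without any single library.

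Among the ligands and signalling genes of the formyl peptide receptors (19 genes measured), 4 were called in splenic Ly6Clow KO, each of them higher, 3 were higher and 2 lower in hepatic Ly6Chi KO, and 5 were higher and 2 lower of 18 tested in hepatic Ly6Clow KO. The shares of all genes called higher and lower were those given above for the members, 4.05% and 4.3%, 15.7% and 14.9%, and 20.2% and 22.5%. The list's median log2 fold changes were 0.28, -0.20 and 0.15, beside 0.01 in each case for all genes tested. Using RPM as deposited moved the median of all genes in hepatic Ly6Chi cells by 0.29 and turned that of the list from -0.20 to 0.12. Hebp1, which encodes the precursor of an acetylated peptide ligand of FPR3 and FPR2, had means of 8.48 RPM in WT and 87.4 RPM in KO in splenic Ly6Clow cells (log2 fold change 2.78 ± 0.54 SE, adjusted p = 0.0194, limma). In hepatic Ly6Clow cells, the means of Hebp1 were 12.2 RPM and 528 RPM (5.40 ± 0.34 SE, adjusted p = 2.46e-05). Anxa1, which encodes annexin A1, went the other way in the liver. Its mean was 738 RPM in WT and 174 RPM in KO Ly6Chi cells (-2.65 ± 0.47 SE, adjusted p = 0.00576), and 358 RPM in WT and 15.0 RPM in KO Ly6Clow cells (-4.65 ± 0.34 SE, adjusted p = 4.32e-05). Rac2, the small GTPase of the phagocyte oxidase, was higher in KO in all 3 comparisons, with log2 fold changes of 1.14, 1.87 and 2.56 (adjusted p = 0.0150, 0.000647 and 3.78e-05, limma).

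Other chemoattractant receptors (9 genes), which also guide cells towards a ligand, were set beside the formyl peptide receptors and the shares of all genes called given for them above. In hepatic Ly6Clow cells, 1 of the 6 that were tested was higher and 3 were lower, with a median log2 fold change of -2.64. Ccr1, a receptor for CCL3 and CCL5, fell from a mean of 70.4 RPM to 1.92 RPM (-4.99 ± 0.57 SE, adjusted p = 0.000319, limma). The leukotriene B4 receptor Ltb4r1 fell from 19.4 to 0.514 RPM, and the C5a receptor C5ar1 from 48.4 to 9.85 RPM, with adjusted p of 8.41e-05 and 0.0177. In hepatic Ly6Chi cells, 1 of 8 was called, and it was lower (Ccr1, -2.64 ± 0.56 SE, adjusted p = 0.0109). In splenic Ly6Clow cells, 1 of 7 was higher, the C3a receptor C3ar1 (3.75 ± 0.54 SE, adjusted p = 0.00635), and 1 was lower, C5ar1 (-0.93 ± 0.21 SE, adjusted p = 0.0290).

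Cd300e, an activating receptor of patrolling monocytes, was higher in Ly6Clow than in Ly6Chi cells of the WT liver and higher in both hepatic KO subsets. In the WT liver, it was 21.1, 13.3 and 7.25 RPM in Ly6Chi and 364, 269.9 and 257 RPM in Ly6Clow cells, and in hepatic KO cells 52.7, 452 and 309.8 RPM and 696, 1340.1 and 1124 RPM. KO was higher in both subsets without overlap, with log2 fold changes of 3.53 ± 0.70 (SE, adjusted p = 0.00910) in Ly6Chi and 1.75 ± 0.26 (SE, adjusted p = 0.00119) in Ly6Clow cells by limma. Replicate 1 of the hepatic Ly6Chi KO group stood well below the other two, and its patrolling monocyte markers (8 genes) summed to 1609.5 RPM against 6968 and 7137 RPM in replicates 2 and 3 and 6804 to 7365 RPM in WT. Endothelial, B cell, T and NK cell, and erythroid markers were higher in this group too, with all 10, 4, 5 and 3 tested markers called. Their part in the results of hepatic Ly6Chi cells was not tested. With replicates 2 and 3 left out, where endothelial markers were highest, the log2 fold change of Cd300e was 1.81. The lone KO library left does not measure the spread in KO. In hepatic Ly6Clow cells, the patrolling monocyte markers went down in KO, with 5 of 8 called lower and sums of 9208 to 10276 RPM in WT and 3814 to 5034 RPM in KO. B cell (4 of 4), T and NK cell (3 of 4), erythroid (3 of 3) and endothelial markers (4 of 10) were called higher there, and their part in the hepatic Ly6Clow results was not tested. In splenic Ly6Clow cells, Cd300e was 713, 665 and 717 RPM in WT and 638, 997, 1268 and 1179 RPM in KO, and the groups overlapped through KO replicate 1 (0.51 ± 0.25 SE, adjusted p = 0.212). Without that replicate, the difference was 0.75 (adjusted p = 0.00857, limma) and was called. The genotype effect was larger in hepatic than in splenic Ly6Clow cells by 1.25 ± 0.38 (SE, adjusted p = 0.0287), a call that was lost without any 1 of 6 of the 13 libraries, which were splenic WT replicates 1 and 3, hepatic WT replicates 2 and 3 and hepatic KO replicates 2 and 3 (adjusted p from 0.0597 to 0.0711). It was also lost without both splenic KO libraries with most neutrophil reads, replicates 1 and 2 (0.89, adjusted p = 0.0562).

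Cd300ld, an activating receptor that pairs with the Fc receptor gamma chain, was higher in KO in 1 of the 3 genotype comparisons tested, that of hepatic Ly6Chi cells. In hepatic Ly6Chi macrophages, it was 55.5, 74.8 and 41.1 RPM in WT and 93.1, 335 and 223 RPM in KO, without overlap, with a log2 fold change of 1.45 ± 0.40 (SE, adjusted p = 0.0286) in limma. The call was lost without WT replicate 1 or 3 or KO replicate 2 or 3 (adjusted p from 0.0795 to 0.108). The value without KO replicates 2 and 3, with a lone KO library left, was 0.58. In Ly6Clow cells, the genotypes overlapped in both organs. Splenic Ly6Clow libraries had 499, 276 and 476 RPM in WT and 253, 461, 466 and 534 RPM in KO (0.04 ± 0.31 SE, adjusted p = 0.943). Hepatic Ly6Clow libraries had 393, 196 and 291 RPM in WT and 371, 343 and 385 RPM in KO (0.33 ± 0.24 SE, adjusted p = 0.290). Pearson's r between Cd300e and Cd300ld was 0.947 over the 29 libraries, which share subsets and organs, and Cd300ld was among the 5 genes closest to Cd300e over the 9 group means.

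Cd300a, an inhibitory receptor of the family, was lower without RNase T2 in 2 of the 3 genotype comparisons tested. In splenic Ly6Clow macrophages, it was 1277, 1235 and 1217 RPM in WT and 491, 775, 766 and 818 RPM in KO. All KO libraries were lower (-0.82 ± 0.21 SE, adjusted p = 0.0445, limma), but the call was lost without any 1 of 5 of the 7 libraries, which were WT replicates 1, 2 and 3 and KO replicates 2 and 3 (adjusted p from 0.0574 to 0.145). In hepatic Ly6Chi macrophages, it was 1018, 718 and 802 RPM in WT and 345, 652 and 558 RPM in KO. These groups did not overlap either (-1.06 ± 0.25 SE, adjusted p = 0.0170), and the call was lost without WT replicate 1 (adjusted p = 0.0702), WT replicate 3 (0.0603) or KO replicate 3 (0.0527), and on RPM as deposited (-0.74, adjusted p = 0.0740). In hepatic Ly6Clow macrophages, it was 870.0, 837 and 862 RPM in WT and 491, 651 and 764 RPM in KO, lower in every KO library but not past the threshold (-0.49 ± 0.21 SE, adjusted p = 0.0850).

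Cd300lf, the other inhibitory receptor of the set and the entry receptor of murine norovirus, differed between genotypes in hepatic Ly6Clow cells. There it was 79.0, 70.7 and 55.6 RPM in WT and 354, 558 and 561 RPM in KO, with a log2 fold change of 2.77 ± 0.23 (SE, adjusted p = 7.36e-05) in limma. In hepatic Ly6Chi cells, it was 77.3, 94.1 and 74.5 RPM in WT and 236, 55.5 and 42.2 RPM in KO. Replicate 1 was above every WT library and replicates 2 and 3 were below each of them (-0.30 ± 0.62 SE, adjusted p = 0.739). The result turned on these libraries, since Cd300lf was called lower without KO replicate 1 (-1.11, adjusted p = 0.00121, limma). Without KO replicates 2 and 3, the value was 1.36, but a lone KO library does not measure the spread in KO. The genotype effect in the liver was larger in Ly6Clow than in Ly6Chi cells by 3.09 ± 0.73 (SE, adjusted p = 0.0207), the only member of 8 with such a difference (background 10.3%, of which 27.9% instead of 49.2% were positive on RPM as deposited). It was lost without hepatic Ly6Clow WT replicate 3 (2.96, adjusted p = 0.0557) or Ly6Chi KO replicate 2 (2.79, adjusted p = 0.0527). In splenic Ly6Clow cells, Cd300lf was 84.8, 82.3 and 72.3 RPM in WT and 398, 128, 90.5 and 102 RPM in KO, where every KO library was above WT and KO replicate 1 stood apart, and the difference did not pass the test (0.89 ± 0.42 SE, adjusted p = 0.197). Without KO replicates 1 and 2 it was 0.33 (adjusted p = 0.111), and without KO replicate 1 alone 0.44 (adjusted p = 0.0614). DESeq2 on the recovered reads called the difference with all libraries (1.15, adjusted p = 0.0436) and edgeR did not (1.14, adjusted p = 0.147).

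Cd300lb, an activating receptor that signals through DAP12, was lower in KO in hepatic Ly6Clow cells, where Cd300lf was higher. In hepatic Ly6Clow cells, it was 121, 119 and 105 RPM in WT and 54.1, 15.6 and 11.7 RPM in KO, with a log2 fold change of -2.40 ± 0.48 (SE, adjusted p = 0.00453) in limma. All 3 KO libraries were below WT, and replicates 2 and 3, which had the highest Cd300lf, were the lowest of all 29 libraries. In hepatic Ly6Chi and splenic Ly6Clow cells, the genotypes overlapped. Hepatic Ly6Chi cells had 119, 101 and 137 RPM in WT and 55.3, 163 and 111 RPM in KO (-0.55 ± 0.33 SE, adjusted p = 0.237). Splenic Ly6Clow cells had 97.5, 124 and 112 RPM in WT and 53.3, 120.0, 119 and 102 RPM in KO (-0.23 ± 0.29 SE, adjusted p = 0.632). The library with the lowest Cd300lb of each of these KO groups, replicate 1, also had the highest Cd300lf of its group. Over all 29 libraries, which share subsets and organs, Pearson's r between Cd300lb and Cd300lf was only -0.342. In the genotype by organ interaction of Ly6Clow cells, 5 of 8 members were called (background 27.1%). Cd300lb fell further in the liver (-2.17 ± 0.60 SE, adjusted p = 0.0174), and Cd300lf rose further (1.89 ± 0.54 SE, adjusted p = 0.0207), although the latter was lost without hepatic WT replicate 3 (1.77, adjusted p = 0.0552). Fpr2 was also larger in the liver (0.92 ± 0.31 SE, adjusted p = 0.0448), but lost its call without any 1 of 10 of the 13 libraries, all but splenic KO replicates 1 and 4 and hepatic KO replicate 3 (adjusted p from 0.0507 to 0.106).

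**Figure D4:**
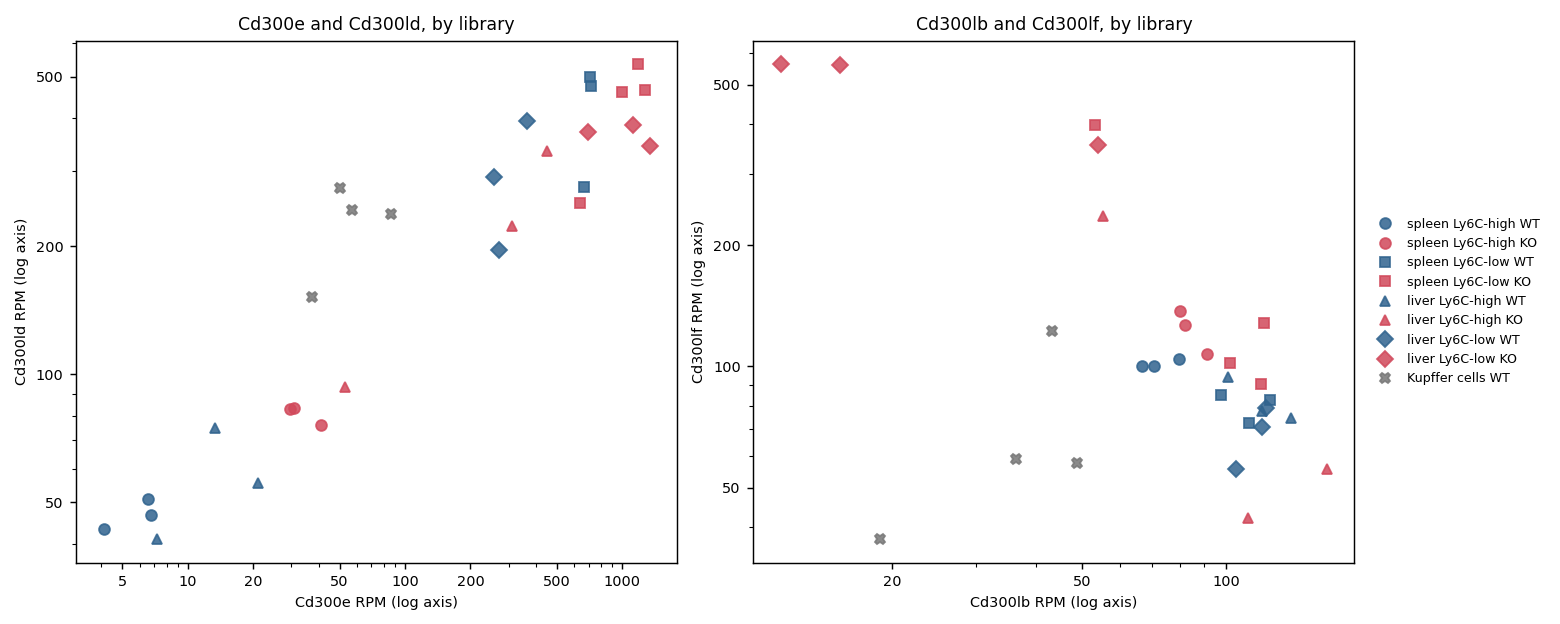
Left, Cd300ld against Cd300e; right, Cd300lf against Cd300lb, as RPM per library on log axes, with shape for organ and subset and colour for genotype. Cd300e and Cd300ld rise together from splenic Ly6Chi WT to the Ly6Clow groups, and replicates 2 and 3 of hepatic Ly6Clow KO combine the lowest Cd300lb with the highest Cd300lf, 558 and 561 RPM.

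Cd300lg, known from endothelium, had its highest WT levels in KCs and in splenic Ly6Chi cells. In splenic Ly6Chi cells, it was 109.7, 107 and 113 RPM in WT and 119, 65.4 and 70.1 RPM in KO, and in splenic Ly6Clow cells 10.2, 7.82 and 9.27 RPM in WT and 10.2, 17.0, 7.94 and 8.95 RPM in KO. The genotypes overlapped within each splenic subset, and the Ly6Clow difference was 0.21 ± 0.24 (SE, adjusted p = 0.587). In hepatic Ly6Chi cells, it was 16.5, 20.4 and 20.7 RPM in WT and 24.9, 212 and 275 RPM in KO. Every KO library was higher, but the difference did not pass the threshold (2.21 ± 0.73 SE, adjusted p = 0.0531, limma). It was called on RPM as deposited (2.52, adjusted p = 0.0452) and without KO replicate 1 (3.22, adjusted p = 1.27e-06). Without KO replicates 2 and 3, with a lone KO library left, it was 0.22. The 10 endothelial markers summed to 477, 2390.3 and 3216 RPM in these KO libraries, in the same order as Cd300lg, and to 86.9 to 129.7 RPM in WT. In hepatic Ly6Clow KO, Cd300lg was 12.3, 24.7 and 105 RPM and the endothelial sum 1409, 2126 and 4457 RPM, against 10.7, 11.9 and 14.0 RPM and 256 to 463 RPM in WT (1.30 ± 0.66 SE, adjusted p = 0.144). It was 0.44 (adjusted p = 0.280) without KO replicate 3 and was called without KO replicate 1 (1.97, adjusted p = 0.0140). DESeq2 on the recovered reads called this difference (1.93, adjusted p = 0.00602) and edgeR did not (1.92, adjusted p = 0.0621), while both called the one in hepatic Ly6Chi cells. With limma, 1 of the 3 genotype comparisons of Cd300lg had an unadjusted p below 0.05. Over the 16 hepatic libraries, which share organ and depth, r between Cd300lg and the endothelial sum was 0.782 on a log2 scale, beside -0.84 over the 13 splenic libraries and 0.126 over all 29, and the part of these cells in the hepatic values was not tested. In splenic Ly6Chi WT libraries, where Cd300lg was 107 to 113 RPM, the 10 endothelial markers summed to 48.8 to 52.9 RPM.

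The CD300 adaptors and signalling genes (10 genes) and the other paired receptors are given beside the shares of all genes called, which were 4.05% higher and 4.3% lower in splenic Ly6Clow, 15.7% and 14.9% in hepatic Ly6Chi, and 20.2% and 22.5% in hepatic Ly6Clow KO. In splenic Ly6Clow KO, 1 was called, the tyrosine kinase Syk, which was higher (1.30 ± 0.15 SE, adjusted p = 0.00251, limma). In hepatic Ly6Chi KO, 1 was higher and 2 were lower, the latter being Tyrobp, which encodes DAP12 (-1.18 ± 0.23 SE, adjusted p = 0.00826), and the phosphatase gene Inpp5d (-0.88 ± 0.20 SE, adjusted p = 0.0154). In hepatic Ly6Clow KO, 3 were higher and 2 lower, with Syk from a mean of 149.7 to 749.6 RPM (2.28 ± 0.15 SE, adjusted p = 3.10e-05). On RPM as deposited, 2 were higher and 1 lower in hepatic Ly6Chi KO, and the median of the list went from -0.23 to 0.09. Other paired receptors (13 genes) numbered 2 higher and 1 lower in splenic Ly6Clow, 1 higher and 3 lower in hepatic Ly6Chi, and 7 higher and 4 lower in hepatic Ly6Clow KO, and their hepatic Ly6Chi median turned from -0.15 to 0.16 on RPM as deposited. The amplifying receptor Trem1 fell from 406 to 3.80 RPM in hepatic Ly6Clow cells (-6.64 ± 0.43 SE, adjusted p = 2.79e-05). The beta-glucan receptor Clec7a was lower in all 3 comparisons (-1.93, -2.68 and -2.54, with adjusted p of 0.000125, 0.00318 and 7.37e-05). Of 7 further FPR and CD300 loci in the table, Cd300c2 was read in all 29 libraries (47.4 to 388 RPM) and was not called in any of the 3 comparisons (log2 fold changes of -0.26, -0.21 and -0.25, adjusted p = 0.265, 0.449 and 0.389). The others, Fpr3, Fpr-rs3, Fpr-rs4, Fpr-rs6, Fpr-rs7 and Cd300c, had at most 38 reads in any library.

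Within the WT liver, 4 of 8 members differed between Ly6Clow and Ly6Chi cells (background 10.1%, of which 65.4% instead of 52% were higher on RPM as deposited). Cd300e was higher in Ly6Clow by 4.31 ± 0.33 (SE, adjusted p = 7.91e-05), Cd300ld by 2.21 ± 0.28 (SE, adjusted p = 0.00123) and Fpr1 by 1.47 ± 0.19 (SE, adjusted p = 0.00129) on the log2 scale in limma, and these held without any single library. Cd300lg was lower (-0.72 ± 0.18 SE, adjusted p = 0.0345), and this call was lost whichever of the 6 libraries was left out (adjusted p from 0.0655 to 0.108). In KO liver, 3 of 8 differed (background 17%, with 38.8% instead of 51.4% higher on RPM as deposited), namely Fpr1 (1.38 ± 0.29 SE, adjusted p = 0.0209), Cd300e (2.54 ± 0.70 SE, adjusted p = 0.0483) and Cd300lf (2.69 ± 0.67 SE, adjusted p = 0.0363). Same-numbered KO libraries of the 2 hepatic subsets deviated together, and with the replicate number as a block 6 of 8 were called. These were the 3 above with Cd300lb (-2.0003, adjusted p = 0.0289), Cd300ld (1.10, 0.0385) and Cd300lg (-1.64, 0.0161). The block was chosen from these same libraries, and the share of all genes called with it is not given here. Without the block, Cd300e and Cd300lf lost their call without any 1 of 5 of the 6 libraries, all but Ly6Chi KO replicate 1 (adjusted p up to 0.143 and 0.121), and Fpr1 without Ly6Chi KO replicate 2 or 3 or Ly6Clow KO replicate 2 (up to 0.0755).

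Between organs, 1 of 8 members differed in WT Ly6Clow cells (background 34.1%), with Cd300e lower in the liver (-1.21 ± 0.13 SE, adjusted p = 0.000114, limma). In KO Ly6Clow cells, 3 of 8 differed (background 36.1%). Xist was 0 RPM in each hepatic library of this comparison and under 1 RPM in only 1 splenic library. Organ and sex can therefore hardly be told apart in it. Fpr1 was higher in the liver (1.02 ± 0.21 SE, adjusted p = 0.00585) in every library. Cd300lf was higher (1.73 ± 0.45 SE, adjusted p = 0.0177) and Cd300lb lower (-2.04 ± 0.51 SE, adjusted p = 0.0147), with 1 splenic library, KO replicate 1, inside the hepatic range, and both calls were lost without hepatic KO replicate 2 (adjusted p = 0.0589 for each) or replicate 3 (0.0674 and 0.0618). Cd300e, which separated the organs in WT, overlapped between them in KO (0.07 ± 0.32 SE, adjusted p = 0.881), and the interaction given above is the test of that difference.

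WT KCs were compared with hepatic Ly6Clow cells of both genotypes, since KCs and Ly6Clow cells share the liver. In KCs, Cd300e was 50.05, 86.4, 37.4 and 56.7 RPM, Cd300a 428, 417, 163 and 454 RPM and Cd300lb 48.8, 36.4, 18.9 and 43.2 RPM. Replicate 3 had the lowest value of Cd300a and Cd300lb, the lowest Kupffer cell marker sum (6863 against at least 17589 RPM) and the highest endothelial sum (7595 RPM). Against WT Ly6Clow cells, 6 of 8 members differed (background 50%). Fpr1 (2.41 ± 0.32 SE, adjusted p = 0.000110) and Cd300lg (2.61 ± 0.24 SE, adjusted p = 9.95e-06) were higher in KCs, and Cd300e (-2.98 ± 0.25 SE, adjusted p = 5.95e-06), Cd300lb (-2.28 ± 0.28 SE, adjusted p = 7.32e-05), Cd300a (-1.92 ± 0.32 SE, adjusted p = 0.000541) and Cd300ld (-0.94 ± 0.25 SE, adjusted p = 0.00897) were lower. Endothelial markers were higher in KCs too, with 10 of 10 called and sums of 3687 to 7595 RPM against 256 to 463 RPM in WT Ly6Clow cells, and their part in the difference of Cd300lg was not tested. Using RPM as deposited moved the median of all genes by 0.53, changed the share of calls that were higher in KCs from 52% to 79.8% and ended the call of Cd300ld (-0.35, adjusted p = 0.262). Hepatic Ly6Clow KO cells also differed from KCs in 6 of 8 members (background 45.6%, with 15.9% instead of 42.5% higher on RPM as deposited), all higher. These were Cd300e (4.71 ± 0.31 SE, adjusted p = 1.74e-05), Cd300lf (3.44 ± 0.37 SE, adjusted p = 0.000173), Fpr2 (1.92 ± 0.25 SE, adjusted p = 0.000386), Cd300a (1.41 ± 0.37 SE, adjusted p = 0.0122), Fpr1 (1.38 ± 0.35 SE, adjusted p = 0.00977) and Cd300ld (1.25 ± 0.23 SE, adjusted p = 0.00211). On RPM as deposited, Fpr1 (0.85, adjusted p = 0.0564) and Cd300a (0.88, adjusted p = 0.0578) lost their call. The Fpr1 value of 1 KC library lay inside the range of Ly6Clow KO. Both comparisons use the same KC libraries. Xist was 0 RPM in the Ly6Clow KO libraries and 647 to 949 RPM in KCs. The differences between these 2 groups therefore cannot be told apart from those of sex. Cd300lb, at 54.1, 15.6 and 11.7 RPM in Ly6Clow KO, overlapped with KCs (-0.15 ± 0.49 SE, adjusted p = 0.821).

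Patterns like those of the 2 leading genes were ranked by Pearson's r over the 9 group means of log2 values, among 9677 genes with a mean of at least 10 RPM in some group. The 5 genes closest to Fpr1 were Nfe2l1 (r = 0.976), Ifi27 (0.959), Mrps27 (0.943), Psmc2 (0.933) and Lima1 (0.922). The 5 closest to Cd300e were Pilra (0.973), Cd300ld (0.972), Heg1 (0.971), Phlda3 (0.970) and Zfp770 (0.969). The points of each r share their libraries and depth, and no test was made.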

How the data were processed

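RNA from sorted macrophages was read by the authors with the Ion AmpliSeq Transcriptome Mouse kit, in which 1 amplicon stands for each gene, on the Ion Proton sequencer. Reads were aligned to mm10 (named in the submitters' processing notes) and counted per amplicon by the AmpliSeqRNA plug-in (Torrent Suite). What the authors deposited is a single table of RPM, in which the reads of each library are scaled to an equal total, for 23930 genes in 29 libraries, and 100.0% of values in every library were whole reads within 0.1 reads, from 11175843 to 21167602 reads per library. Intervals and floors would cover counting error only.

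RPM were divided by size factors (median of ratios, RLE, over the compared libraries), transformed as log2(RPM + 1) and fitted with limma 3.58.1 (R 4.3.3), using only the compared groups. Fold changes on that scale understate the change of low genes. Genes reaching 1 RPM in 3 or more compared libraries were tested, two-sided, with Benjamini-Hochberg adjustment over all of them. A call needed an adjusted p below 0.05 and a fold change above 1.5, interactions only the former. The fits of the 3 tested genotype comparisons were also run on simulated counts, with the same spread setting for every gene. Other comparisons and interactions were not simulated, and the outcome is not given here. edgeR 4.0.16 and DESeq2 1.42.0 were run on the recovered reads as alternatives, beside another pseudocount, no filter, RPM as deposited, TMM factors, 1 fit of all libraries, a replicate block and leaving out each library. Leaving out the 2 splenic Ly6Clow KO libraries with most neutrophil reads, or hepatic Ly6Chi KO replicates 2 and 3, was added after seeing the data.

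The members and the lists were chosen with earlier results of these data known. Named are all members, at most 3 called genes per pathway list and comparison with the largest fold change, markers that stand beside a member, and the 5 genes closest to Fpr1 and to Cd300e. The fits reported for all comparisons were unpaired, and the replicate block was only an alternative run. It was read as pairing only between the hepatic KO subsets. There the deviations of same-numbered libraries from the group means correlated at 0.527, 0.232 and 0.458 for replicates 1, 2 and 3. The labels do not say what the numbers mark. No other comparison had every correlation above 0.1. RNase T2 genes and the Ly6c genes were not analysed here.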

Additional observations from a re-analysis of the deposited data

Results flagged for a closer look

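In groups of 4 libraries, 16 sets of values were examined for 1 library far from the rest, and 3 stood out, where chance gives about 1 in 20. Cd300a was 491.1 RPM in replicate 1 of splenic Ly6Clow KO, below the other 3 libraries, with a gap of 0.84 of the range of the group. In the same library Cd300lf was 398.1 RPM, the highest of its group, with a gap of 0.878 of the range. That library also had the highest neutrophil marker sum (42941 RPM) and the lowest patrolling monocyte marker sum (7569 RPM) of its group. Cd300a was 163.0 RPM in replicate 3 of the KCs, with a gap of 0.872 of the range, in the library with the lowest Kupffer cell marker sum (6863 RPM). The part of these markers in the 3 values was not tested.

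Genotype effects differed between hepatic and splenic Ly6Clow cells in limma's interaction for 5 genes. The log2 differences were 1.31 for Fpr1 (adjusted p = 0.00211), 0.92 for Fpr2 (adjusted p = 0.0448), 1.25 for Cd300e (adjusted p = 0.0287), -2.17 for Cd300lb (adjusted p = 0.0174) and 1.89 for Cd300lf (adjusted p = 0.0207). Between the hepatic Ly6Clow and Ly6Chi subsets, the genotype effect of Cd300lf differed by 3.09 (adjusted p = 0.0207). Xist was under 1 RPM in every hepatic KO library of both Ly6C subsets and in no hepatic WT library of these subsets, so these differences cannot be told apart from those of sex.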

How the results depend on the processing

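Of the 88 tested fold changes, 42 were called, and none of the called ones changed direction under any alternative run. Leaving out 1 library kept 250 of 311 values of called fold changes called, and the other alternatives kept 362 of 397. The latter include the looser threshold of 0.1 on the same fit, which keeps every call by construction. Without 1 library, the members called numbered 1 to 4 in splenic Ly6Clow (3 with all libraries), 2 to 7 in hepatic Ly6Chi (5), 0 to 4 between hepatic KO subsets (3), 1 to 2 between WT organs (1), 1 to 4 between KO organs (3), 2 to 5 in the genotype by organ interaction (5) and 0 to 5 in the genotype by subset interaction (1). Fold changes not called with all libraries that changed sign ranged from -0.23 to 0.31 for Cd300ld and -0.35 to 0.0720 for Cd300lb in splenic Ly6Clow, -1.11 (called, without KO replicate 1) to 0.23 for Cd300lf in hepatic Ly6Chi, -0.23 to 0.0935 for Cd300a between WT hepatic subsets, -0.32 to 0.44 for Fpr2 between KO hepatic subsets, -0.00726 to 0.155 for Cd300lb between WT organs, -0.18 to 0.35 for Cd300e, -0.42 to 0.00159 for Cd300ld and -0.34 to 0.0472 for Cd300a between KO organs, -0.76 to 0.23 for Cd300lb against KCs, and -0.32 to 0.16 for Fpr1 in the genotype by subset interaction.

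Counts of members under other settings, here and without 1 library, are given without the share of all genes called under each setting. They describe the calls only. With no filter on low values, 1 member was called in splenic Ly6Clow, 3 in hepatic Ly6Chi, 1 between hepatic KO subsets and 3 in the genotype by organ interaction. With 1 fit of all libraries, 6 were called between hepatic KO subsets, 3 by organ and 2 by subset. With edgeR, 1 was called between hepatic KO subsets, 3 by organ and 0 by subset, where DESeq2 called 2 and limma had 2 at an unadjusted p below 0.05. At an adjusted p below 0.1 with no fold threshold, 5 were called between hepatic KO subsets, 4 between WT organs, 5 between KO organs and 2 by subset. Cd300lf in hepatic Ly6Chi was 0.0121 on RPM as deposited, 0.21 with DESeq2 and 0.23 with edgeR, Cd300a between WT hepatic subsets was 0.0321 on RPM as deposited, and Cd300lb against KCs was 0.0644 with DESeq2 and 0.0582 with edgeR. With the replicate block, 6 members were called between hepatic KO subsets, where the reported fit was unpaired. The block was read as pairing there from correlations in these same libraries. Elsewhere libraries shared only a number, and the replicate block gave 1 call between KO organs, with Cd300ld at 0.00250 there and at -0.10 in splenic Ly6Clow. Only between hepatic KO subsets did every library correlate best with its own number. Without splenic Ly6Clow KO replicates 1 and 2, Cd300lb was 0.0538 and Cd300lg -0.0362 there, Cd300e was -0.31 between KO organs Cd300ld -0.0282 in the organ interaction, and the call of Cd300e in that interaction was lost (0.89, adjusted p = 0.0562). Without hepatic Ly6Chi KO replicates 2 and 3, which leaves a lone KO library in that group, Cd300lf was 1.36 there and Cd300lg was 0.36 between KO subsets. The cause of these changes was not tested.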

Other observations

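Against WT hepatic Ly6Clow cells, 12 of 18 tested ligands and signalling genes of the formyl peptide receptors were lower in WT KCs and 2 were higher, with a median log2 fold change of -1.04. Of the 10 CD300 adaptors and signalling genes, 6 were called, each of them lower in KCs, with a median of -0.87, where 50% of all genes tested were called in either direction. On RPM as deposited, which moves the median of all genes by 0.53, the counts were 7 lower and 4 higher for the former and 4 lower and 1 higher for the latter, with medians of -0.46 and -0.28. Hepatic Ly6Clow KO cells, compared with the same KC libraries, had 11 of 17 of the former higher and 2 lower, and 8 of the 10 adaptors called, each of them higher, where 45.6% of all genes tested were called. On RPM as deposited, these were 7 higher and 2 lower, and 4 higher. The KO libraries and KCs also differ in Xist, as given above, so sex cannot be told apart here. Fpr1 had means of 193 RPM in KCs and 328 RPM in hepatic Ly6Clow KO cells, and Cd300e had means of 57.6 RPM in KCs and 1053 RPM in hepatic Ly6Clow KO cells.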
